A study of Homo sapiens with 12 samples.

Results

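The difference between the response to full-length SOX9 and the response to M303, a shortened form of SOX9, was measured for every expressed gene of LS180, an established human colorectal cancer line. For each gene it is the log2 change on induction of SOX9 minus the log2 change on induction of M303. It rests on 8 of the 12 libraries of the series, and 18219 of the 60671 annotated genes had enough reads to be tested. RNA was read from derivatives of LS180 that carry a doxycycline-inducible construct for V5-tagged wild-type SOX9, for V5-tagged M303 or, as the control of the remaining 4 libraries, for GFP. Each line was sampled without doxycycline and after 24 h with 0.5 µg/ml, with 2 libraries in each of the 6 groups. Each construct sits in a line of its own, so the form of SOX9 and the line that carries it cannot be told apart. Doxycycline was given alike to both lines, and what it does alike in both cancels in the difference. The sources used here do not say whether the duplicates came from separate cultures, so the p-values cover no more than the scatter of these libraries, and that may be technical.

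SOX9 is a transcription factor with an HMG box, a domain that binds and bends DNA. In the intestine it is made by stem and progenitor cells at the crypt base and is required for Paneth cells, which secrete lysozyme and defensins. Goblet cells are the other main secretory type of the epithelium: they secrete the gel-forming mucin MUC2 and trefoil peptides, under the transcription factors ATOH1 and SPDEF.

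The library totals ran from 31012775 to 48529770 counted reads. The level of a gene is given below as CPM, the read count scaled to a common library total, which compares libraries for 1 gene and not 1 gene with another. The summed level of 8 epithelial markers lay between 9908 and 11910 CPM in all 12 libraries, and the 2 induced SOX9 libraries were the lowest, at 9952 and 9908 CPM. SOX9 lowered 3 of the 8, VIL1, CDX1 and CDX2, against 1.16% of all genes tested. For the difference 0 of the 8 were called, which is near the 0.489% called over all genes tested. Markers of other cell types were near 0, with sums of at most 2.92 CPM for fibroblasts, 4.37 CPM for blood and immune cells and 1.63 CPM for endothelium. LYZ, the Paneth cell marker, and MUC2, the goblet cell marker, were both detected in every library.

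Promoter sequences are shown first for 4 of the genes described below. Of these, 2 rose with SOX9 and were not called with M303, 1 fell more with SOX9, and 1 is placed below among the genes alike in both lines. They span 250 bases before to 50 bases after the RefSeq start site on GRCh38.p14, 5′ to 3′ on the gene's strand. Capitals mark 3 words searched on both strands: ACAATG and ACAAAG, which are core words of SOX binding sites, and TCAAAG, a core word of TCF sites that shares the letters CAAAG with ACAAAG.
KCNN4, a calcium-gated potassium channel gene (chr19:43780924-43781223, minus strand), holds ACAAAG at 2 places and ACAATG at 1.
KCNN4: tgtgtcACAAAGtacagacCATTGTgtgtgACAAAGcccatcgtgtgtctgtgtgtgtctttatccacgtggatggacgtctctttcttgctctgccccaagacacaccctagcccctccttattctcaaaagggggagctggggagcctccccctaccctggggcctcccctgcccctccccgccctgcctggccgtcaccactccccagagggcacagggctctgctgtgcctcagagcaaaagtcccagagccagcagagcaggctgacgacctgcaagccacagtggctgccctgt
OLFM4, a secreted glycoprotein gene of crypt base cells (chr13:53028563-53028862, plus strand), holds ACAAAG at 1 place.
OLFM4: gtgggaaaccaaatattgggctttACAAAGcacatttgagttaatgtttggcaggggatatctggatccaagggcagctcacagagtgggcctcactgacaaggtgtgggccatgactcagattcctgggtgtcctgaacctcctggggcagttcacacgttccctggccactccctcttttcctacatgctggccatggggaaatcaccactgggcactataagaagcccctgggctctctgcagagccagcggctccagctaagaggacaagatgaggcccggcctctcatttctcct
REG4, a secreted lectin gene of goblet and enteroendocrine cells (chr1:119811411-119811710, minus strand), holds ACAAAG at 1 place and TCAAAG at 1.
REG4: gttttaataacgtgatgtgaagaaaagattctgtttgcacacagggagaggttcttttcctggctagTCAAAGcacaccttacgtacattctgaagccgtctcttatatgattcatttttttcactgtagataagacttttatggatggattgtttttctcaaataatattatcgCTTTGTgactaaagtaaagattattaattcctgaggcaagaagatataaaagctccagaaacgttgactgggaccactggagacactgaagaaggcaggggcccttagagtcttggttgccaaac
LINC00261, a long noncoding RNA gene (chr20:22578593-22578892, minus strand), holds ACAAAG at 2 places and ACAATG at 1.
LINC00261: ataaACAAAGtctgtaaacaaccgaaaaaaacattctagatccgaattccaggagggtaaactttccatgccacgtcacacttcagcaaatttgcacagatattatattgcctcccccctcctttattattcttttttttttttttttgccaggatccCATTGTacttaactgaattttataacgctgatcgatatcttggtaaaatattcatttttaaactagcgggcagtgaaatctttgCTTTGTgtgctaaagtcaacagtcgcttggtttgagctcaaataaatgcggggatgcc
Over all genes tested 11951 had a promoter in the RefSeq table, and 11.3% of these held ACAAAG. The word was found in 13 of 54 promoters of genes whose response was higher with SOX9 than with M303 (24.1%), in 5 of 18 where it was lower (27.8%) and in 3 of 26 of the genes described below as alike (11.5%). ACAATG was found in 9.26%, 0% and 7.69% of these promoters, against 6.31% over all genes. TCAAAG was found in 7.41%, 16.7% and 11.5%, against 9.11%. These are counts of letters in a short window and say nothing about binding. The same words occurred in LINC00261 and in KCNN4, whose responses are unlike. All the promoters printed above hold ACAAAG, so they do not stand for the other genes described below. Those of MUC2, APCDD1, SMOC2, PLA2G2A, CD24 and SPDEF hold none of the words searched, and that of ATOH1 holds only TCAAAG.

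The labels were checked on SOX9 itself (ENSG00000125398, GRCh38 chromosome 17, 72121020 to 72126416, plus strand). In the SOX9 line its level was 357 and 381 CPM without doxycycline and 712 and 761 CPM with it. In the M303 line the levels were 399 and 367 CPM without and 818 and 867 CPM with doxycycline. All 4 induced libraries lay above all uninduced ones, and the M303 pair lay above the SOX9 pair. The log2 changes were 1.00 (SE 0.07) for SOX9 and 1.14 (SE 0.07) for M303, and their difference was -0.14 (95% interval -0.36 to 0.07, edgeR adjusted p = 0.891). The reads counted on SOX9 pool the cell's own transcripts with those of the construct, were counted without strand and overlap 2 opposite-strand genes, so they show induction in both lines and do not measure either protein.

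The responses to the 2 forms differed for 89 genes, 0.489% of those tested: 65 were higher with SOX9 (0.357% of all tested) and 24 were lower (0.132%) by edgeR's quasi-likelihood test at an adjusted p under 0.05. Of the 89, 42 differed by at least 2-fold, 33 of them higher and 9 lower. In all 89 the induced SOX9 pair lay above or below the other 6 libraries, against 20.9% of all genes tested. The calls come from these same libraries. Where such a gap is described for single genes below, it gives levels and is no further support. Induction of SOX9 changed 541 genes (2.97%), 330 higher (1.81%) and 211 lower (1.16%). Induction of M303 changed 1 gene (0.00549%), SOX9 itself, with 662 genes at an unadjusted p under 0.05. DESeq2 called 3 genes for M303. Induction of GFP changed 0 genes by edgeR, with 580 at an unadjusted p under 0.05, and DESeq2 called 2. The induced SOX9 libraries differed from the induced M303 libraries in 313 genes (1.72%), 210 higher (1.15%) and 103 lower (0.565%). Before induction 0 genes differed between the SOX9 and M303 lines by edgeR, with 508 at an unadjusted p under 0.05 and 1 called by DESeq2. The count of 89 was 57 without the second induced SOX9 library. Without filtering low counts it was 147, and DESeq2 gave 139. Leaving out single libraries also moved the 541 genes, to 301 without the second uninduced SOX9 library, 270 without the first induced one and 231 without the second.

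All of these calls compare levels in bulk RNA, where fewer cells of a type and less RNA per cell cannot be told apart. The plot of both responses shows the spread of the 541 genes changed by SOX9.

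**Figure D1:**
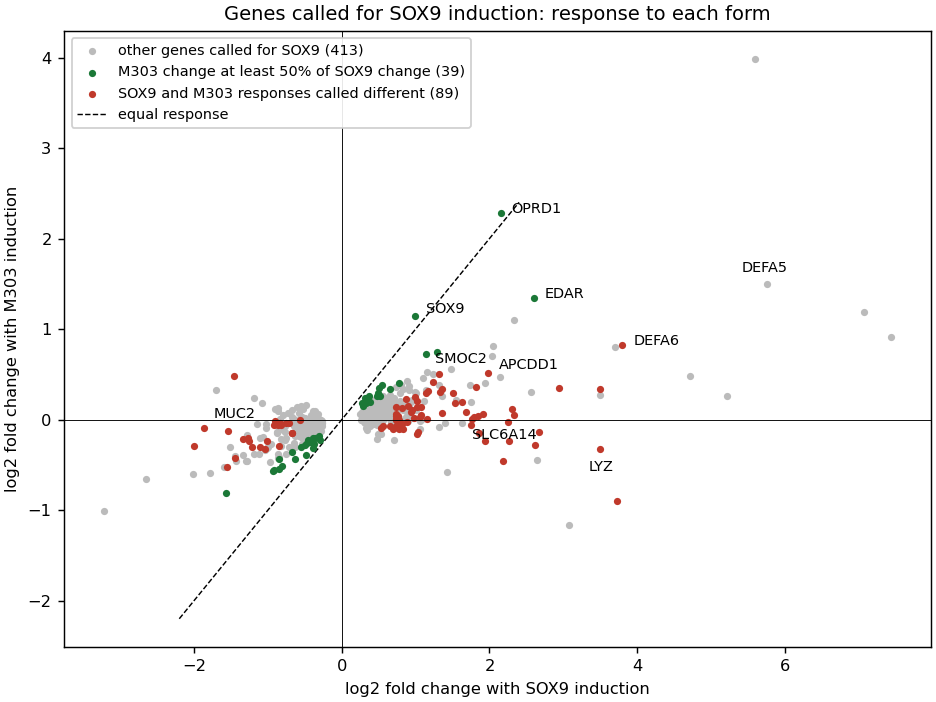
Log2 fold change on induction of SOX9 (x axis) against that on induction of M303 (y axis) for the 541 genes called for SOX9 induction. The 89 genes whose responses were called different are red, and the dashed line marks an equal response. Green marks 39 others whose M303 change had the same sign, an edgeR unadjusted p under 0.05 and at least 50% of the SOX9 change. The remaining genes are grey. Most points lie near 0 on the y axis, while SOX9 and OPRD1 lie just above the dashed line.

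Among Paneth cell products, LYZ and DEFA6 had large called differences. Of 9 tested members of a list of 15, 4 were higher with SOX9 than with M303 and 0 were lower. Over all genes tested 0.357% were higher and 0.132% lower. This list and those below were chosen with earlier results of these data known, so their counts are descriptions and no test. The list's median difference was 0.85 log2, against 0 over all genes. The members' median change was 0.93 with SOX9, -0.10 with M303 and 0.06 with GFP. The 4 are LYZ, DEFA6, PLA2G2A and CD24. On induction of SOX9 itself 6 members rose and 1 fell, against 1.81% and 1.16% of all genes. The 1 that fell is SPINK4, a trypsin inhibitor family gene also made by goblet cells and named after its values were seen (-1.28, with a difference of -0.82, edgeR adjusted p = 0.0944). Differences in the list ran from -1.61 to 4.26. The other 6 listed members, among them REG3A and MMP7, had too few reads to be tested.

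LYZ encodes lysozyme, which cleaves bacterial cell walls (GRCh38 chromosome 12, 69348381 to 69354234, plus strand). Its level was 56.7 and 46.9 CPM in the uninduced SOX9 libraries and 590 and 579 CPM in the induced ones. In the M303 line it was 46.5 and 52.3 CPM without and 39.7 and 39.3 CPM with doxycycline. The induced SOX9 pair lay far above all others, and the induced M303 pair was the lowest of the 8. The response was 3.50 (SE 0.09) to SOX9 and -0.32 (SE 0.09, unadjusted p = 0.00239, adjusted p = 1) to M303, with a difference of 3.82 (SE 0.13, edgeR adjusted p = 1.94e-13), a 14.1-fold gap. In the GFP line LYZ lay between 43.9 and 49.3 CPM with or without doxycycline. LYZ overlaps 1 opposite-strand gene, from which unstranded reads cannot be separated.

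DEFA6 encodes an alpha-defensin, an antimicrobial peptide stored in Paneth granules. It stood at 1.12 and 1.91 CPM in the uninduced and 20.8 and 21.6 CPM in the induced SOX9 libraries, against 1.26 and 2.00 CPM and then 4.07 and 1.67 CPM in the M303 line. The 2 induced M303 libraries differed from each other, and only the first lay above the uninduced ones. The responses were 3.80 and 0.82 log2 and differed by 2.98 (SE 0.49, adjusted p = 0.00403); without the second uninduced M303 library the difference was 2.6 (adjusted p = 0.0608). DEFA5, the other defensin, was at 1.02 and 0.282 CPM without and 34.2 and 36.9 CPM with SOX9, and at 0.903 and 0.640 CPM without and 2.41 and 1.90 CPM with M303. Both induced M303 libraries were above both uninduced ones, at far lower levels than with SOX9. Its difference of 4.26 (SE 0.81) did not pass (edgeR adjusted p = 0.0711). It passed without the first induced GFP library (4.26, adjusted p = 4.13e-05), the second (4.26, 3.87e-05) or the first uninduced SOX9 library (5.47, 0.0152). It also passed in a fit of the 8 SOX9 and M303 libraries alone (4.26, adjusted p = 5.05e-04), with no filter on low counts (4.25, 4.7e-12) and with a stricter one (4.27, 0.0427). The 2 defensins are related genes, and reads that map to both may have been lost, which was not measured here.

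PLA2G2A, a secreted phospholipase that kills bacteria, was at 112 and 98.1 CPM without and 203 and 199 CPM with SOX9. With M303 it went from 113 and 114 to 124 and 116 CPM. The difference was 0.85 (SE 0.12, adjusted p = 8.84e-04). CD24, a surface sialoglycoprotein of Paneth and progenitor cells, differed by 0.63 (SE 0.10, adjusted p = 0.00253), with changes of 0.53 to SOX9 and -0.10 to M303. The plot of levels by library shows LYZ, DEFA6 and PLA2G2A beside genes of other groups.

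**Figure D2:**
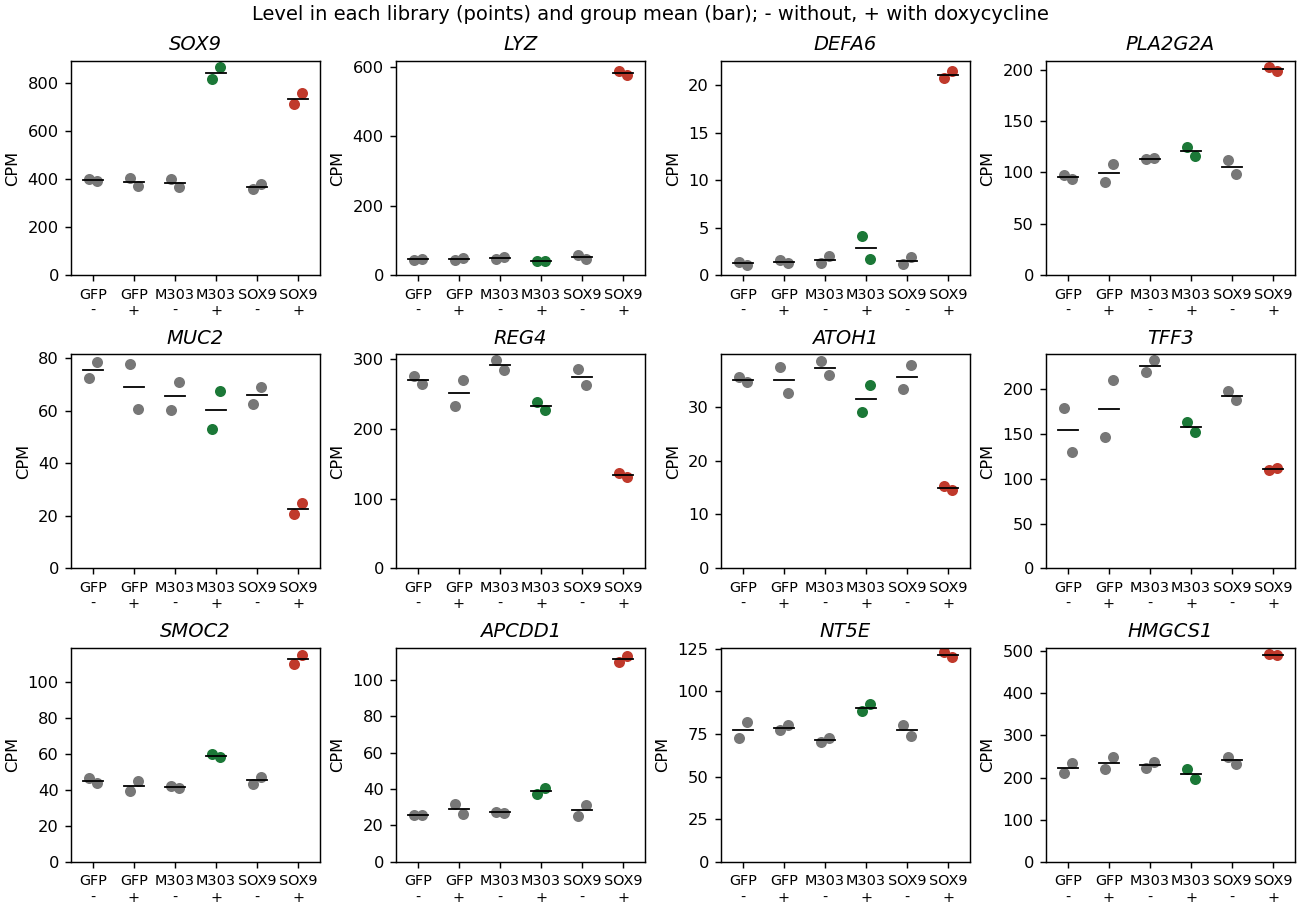
Level of 12 genes in CPM (y axis, from 0) in each of the 12 libraries, grouped by construct (GFP, M303, SOX9) without (-) and with (+) doxycycline; points are libraries, bars are the means of 2, and induced M303 is green and induced SOX9 red. LYZ, DEFA6, PLA2G2A and HMGCS1 are highest in the induced SOX9 pair, SMOC2, APCDD1 and NT5E are also above baseline in the induced M303 pair, and SOX9 is higher in both.

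Among goblet cell genes, MUC2, REG4 and AGR2 were lower with SOX9 than with M303. These were 3 of 26 tested members of a list of 28, and 0 were higher, against 0.132% lower and 0.357% higher over all genes. Differences ran from -1.87 to 5.17, and the highest was not called. The list's median difference was -0.63 log2, against 0 over all genes, with medians of -0.82 on induction of SOX9, -0.13 on induction of M303 and -0.05 on induction of GFP. SOX9 lowered 14 members and raised 0, against 1.16% lowered and 1.81% raised over all genes. M303 values were below 0 for 18 of 26, 7 of them at an unadjusted p under 0.05, and none passed the adjusted test.

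MUC2 encodes the main gel-forming mucin of intestinal mucus (GRCh38 chromosome 11, 1074875 to 1110511, plus strand). Its level was 62.7 and 69.3 CPM without and 20.7 and 24.8 CPM with SOX9, and 60.5 and 70.9 CPM without and 53.1 and 67.4 CPM with M303. The induced SOX9 pair lay below the other 6, while the ranges with and without M303 overlapped. The responses were -1.54 (SE 0.14) and -0.13 (SE 0.13), and MUC2 fell by 1.42 log2 more with SOX9 (SE 0.19, adjusted p = 8.16e-04). MUC2 ranged from 60.7 to 78.6 CPM across the GFP libraries.

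In both lines REG4 and AGR2 were lower in the induced pair than in the uninduced pair, but their changes with M303 were not called. REG4, whose promoter is printed above, went from 286 and 263 to 136 and 132 CPM with SOX9 and from 298 and 284 to 238 and 227 CPM with M303. Both induced M303 libraries lay below all 4 uninduced ones and above both induced SOX9 ones. The response to M303 was -0.32 (SE 0.08, unadjusted p = 4.99e-04, adjusted p = 0.832), 31.3% of the SOX9 response of -1.04, and the difference was -0.71 (SE 0.11, adjusted p = 0.00191). AGR2, a disulfide isomerase that folds mucins, fell with SOX9 by 0.85 and had -0.30 with M303 (edgeR unadjusted p = 2.90e-04, adjusted p = 0.832). Its difference was -0.56 (SE 0.10, adjusted p = 0.00411), and -0.54 without the second induced SOX9 library (adjusted p = 0.0512).

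Of the 14 goblet genes that SOX9 lowered, 13 had the same sign in the M303 line and 8 in the GFP line. Over all 211 genes that SOX9 lowered, the shares were 84.8% for M303 and 67.3% for GFP. The goblet count is near the M303 share and is no result about goblet genes. TFF3, a trefoil peptide secreted with mucus, stood at 197 and 188 CPM without and 109 and 111 CPM with SOX9. In the M303 line it was 219 and 232 CPM without and 163 and 153 CPM with doxycycline, so both induced pairs lay below their own uninduced pairs. The responses were -0.80 and -0.52, and the difference of -0.28 was not called (95% interval -0.82 to 0.25, adjusted p = 0.911). Uninduced and induced GFP libraries overlapped, between 129 and 210 CPM. The interval allows a gap as wide as the SOX9 response, so it does not show that the responses are equal. TFF1, AGR3 and NXPE1, named here after their values were seen, also had M303 values of at least 50% of the SOX9 change. These were -0.43 against -0.85, -0.57 against -0.94 and -0.81 against -1.56. The induced SOX9 libraries were called below the induced M303 ones for TFF1 (-0.59, edgeR adjusted p = 0.0324), and not for AGR3 or NXPE1.

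The transcription factors that direct secretory cells were lower with SOX9 than with M303 in 3 of 15 tested cases, and higher in 0. Over all genes tested 0.132% were lower and 0.357% higher. The list's median was -0.43, with -0.39 for SOX9, -0.15 for M303 and -0.13 for GFP. ATOH1, the factor that commits cells to the secretory lineage, went from 33.3 and 37.8 to 15.2 and 14.6 CPM with SOX9 and from 38.5 and 35.9 to 29 and 34 CPM with M303. Both induced M303 libraries lay below both uninduced M303 ones (-0.24, edgeR unadjusted p = 0.0432, not called) and overlapped the uninduced SOX9 ones. The induced SOX9 pair lay below all the others. The difference was -1.01 (SE 0.16, adjusted p = 0.00202). CREB3L1, a membrane-bound factor of secretory cells, went from 85.6 and 98.3 to 41.9 and 43.7 CPM with SOX9 and from 98.5 and 92.4 to 75.3 and 79.0 CPM with M303. Its difference was -0.80 (SE 0.13, adjusted p = 0.00202), and its M303 value was 27.9% of the SOX9 change. SPDEF, which drives goblet cell maturation, differed by -0.91 (SE 0.20, adjusted p = 0.0411). Its responses were -1.21 to SOX9 and -0.30 to M303 (edgeR unadjusted p = 0.0443, not called). The SPDEF call did not hold without either induced M303 library, either induced SOX9 library, the second uninduced M303 library or the second uninduced SOX9 library, where the difference was -0.781 to -0.997 and the adjusted p 0.0679 to 0.282. It also did not hold with a replicate block (-0.92, adjusted p = 0.0714) or with a stricter filter on low counts (-0.91, adjusted p = 0.0511).

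No called difference was found in the lists of enzymes that fold, secrete and decorate mucus proteins. AGR2, described above, and B3GALT5, described below, were called and are not in these lists. Of 27 tested enzymes of mucin-type glycosylation 0 differed, with a median of 0, and of 32 genes of folding and secretion in the endoplasmic reticulum 0 differed, with a median of -0.03. Counts of 0 in lists of this size are near the 0.489% called over all genes. For 25 of these 32 (78.1%) the 95% interval of the difference lay within 0.5 log2 (1.41-fold) of 0 on both sides, against 34.6% of all genes tested. Intervals are narrower for genes with more reads, and the share among genes of like level was not measured. The 2 shares thus differ in precision and do not compare functions. SOX9 itself lowered 2 of the 32 and raised 0, against 1.16% and 1.81% of all genes.

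Crypt base stem cell genes differed in 2 of 23 tested cases, SMOC2 and OLFM4, both higher with SOX9, with a list median of 0.13. The share higher over all genes tested was 0.357%. SMOC2, a matricellular protein, was at 43.4 and 47.2 CPM without and 110 and 115 CPM with SOX9, and at 42.1 and 41.0 CPM without and 60.0 and 58.0 CPM with M303. The induced M303 pair lay above all 4 uninduced libraries and below the induced SOX9 pair, an intermediate position. The M303 response of 0.50 (SE 0.09, unadjusted p = 1.94e-05, adjusted p = 0.177) was 38.5% of the SOX9 response of 1.31, and the difference was 0.81 (SE 0.13, adjusted p = 0.00202). In the GFP line SMOC2 lay between 39.2 and 46.4 CPM.

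OLFM4 went from 42.9 and 41.7 to 72.1 and 68.1 CPM with SOX9, while the M303 line had 59.6 and 58.7 CPM without and 60.1 and 61.5 CPM with doxycycline. Both uninduced M303 libraries were above both uninduced SOX9 ones. The uninduced lines differed by -0.48 log2 (unadjusted p = 1.48e-05, adjusted p = 0.269, not called), and the induced lines by 0.21 (adjusted p = 0.343). The difference in response was 0.69 (SE 0.12, adjusted p = 0.00424), and 0.64 without the first induced SOX9 library (adjusted p = 0.0601), which left 1 stem cell gene called. LGR5, the R-spondin receptor that marks stem cells, had 0.25 with SOX9 and -0.09 with M303 (difference 0.34, adjusted p = 0.514), and ASCL2, a stem cell transcription factor, had 0.22 and -0.02 (difference 0.24, adjusted p = 0.744).

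WNT feedback genes and targets differed in 3 of 29 tested cases, all higher with SOX9, with a list median of 0.10. The share higher over all genes tested was 0.357%. APCDD1, an inhibitor of WNT at the receptor, was at 25.4 and 31.3 CPM without and 110 and 113 CPM with SOX9, and at 27.4 and 26.9 CPM without and 37.0 and 40.8 CPM with M303. As for SMOC2, the induced M303 pair was above every uninduced library and below the induced SOX9 pair. The responses were 1.98 and 0.52 (M303 edgeR unadjusted p = 1.41e-04, adjusted p = 0.642, not called) and differed by 1.46 (SE 0.15, adjusted p = 2.66e-05). NKD1, an inhibitor that acts on Dishevelled, had responses of 1.14 and 0.30 and a difference of 0.84 (SE 0.14, adjusted p = 0.00253), with 2 overlapping opposite-strand genes. VSNL1, a neuronal calcium sensor, was the third, at 0.89 (SE 0.15, adjusted p = 0.0033), with 0.79 for SOX9 and -0.10 for M303. AXIN2, the usual WNT reporter gene, was at 159 to 172 CPM in the SOX9 line and 162 to 167 CPM in the M303 line, and its difference was -0.09 (95% interval -0.31 to 0.12).

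Genes of absorptive cells and ion transport went both ways. Of 16 tested lipid handling genes 1 was lower with SOX9 than with M303 and 0 were higher, against 0.132% and 0.357% of all genes. The 1 is FABP2, a fatty acid binding protein, with a difference of -1.71 (SE 0.34, edgeR adjusted p = 0.0155) at 1.38 to 7.94 CPM. That call did not hold without the first uninduced or first induced library of the M303 line (-1.54, adjusted p = 0.109, and -1.63, 0.0692) or of the SOX9 line (-1.55, 0.0591, and -1.54, 0.148). FABP1 (-1.21, adjusted p = 0.251) and KRT20, a keratin of differentiated cells (-1.08, adjusted p = 0.159), were not called. Of 24 brush border genes 1 was higher and 1 lower, against the same shares of all genes. MUC13, a membrane mucin, was the higher one, at 352 and 324 CPM without and 570 and 552 CPM with SOX9 and 330 to 356 CPM throughout the M303 line (difference 0.67, SE 0.10, adjusted p = 8.16e-04).

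KCNN4, whose promoter is printed above, and GUCY2C, the receptor for guanylin, were the 2 of 18 ion transport genes called, against 0.489% of all genes. KCNN4 was at 38.4 and 41.4 CPM without and 81.8 and 79.7 CPM with SOX9, and at 44.4 and 39.1 CPM without and 38.8 and 35.7 CPM with M303. Only the induced SOX9 pair stood apart, and the difference was 1.18 (SE 0.14, adjusted p = 1.93e-04). GUCY2C went the other way, from 31.5 and 32.9 to 12.4 and 14.3 CPM with SOX9, and from 29.0 and 29.1 to 26.1 and 24.3 CPM with M303. Its difference was -1.07 (SE 0.15, adjusted p = 5.96e-04). CDX2, a factor of intestinal identity, had -0.46 with SOX9 and -0.05 with M303, and the difference of -0.41 was not called (adjusted p = 0.301). It was called without the first uninduced SOX9 library (-0.55, adjusted p = 0.0263). None of the 20 tested identity factors was called, which is near the 0.489% called over all genes and is no result about them. SOX9 raised 2 of the 20 and lowered 5, against 1.81% and 1.16% of all genes. For 30% of them the interval of the difference lay within 0.5 log2 of 0, against 34.6% of all genes tested.

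Single members differed in several metabolic and signalling lists. HMGCS1, the synthase that feeds the cholesterol pathway, was at 249 and 232 CPM without and 493 and 490 CPM with SOX9, and at 223 and 236 CPM without and 220 and 197 CPM with M303. The 2 induced SOX9 libraries were about equal and above all others, and the difference was 1.17 (SE 0.11, adjusted p = 9.31e-06). It was the only 1 of 26 cholesterol synthesis genes called, against 0.489% of all genes, and the median of that list was -0.16. SOX9 raised HMGCS1 and lowered 7 others of the 26, against 1.81% raised and 1.16% lowered over all genes, while M303 changed 0. SLC6A14, an amino acid transporter, rose from 21.6 and 17.4 to 69.4 and 63.2 CPM with SOX9 and was at 20.5 to 23.4 CPM throughout the M303 line. Its difference was 1.76 (SE 0.16, adjusted p = 6.22e-06). SLC6A20, a proline transporter of the same family, differed by -0.81 (SE 0.11, adjusted p = 3.42e-04). CD74, the invariant chain of MHC class II, differed by 1.46 (SE 0.25, adjusted p = 0.00371), and TNFRSF11A, the receptor RANK, by 0.90 (SE 0.12, adjusted p = 4.77e-04).

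Among secreted signals, GREM1, an antagonist of BMP, was at 176 and 171 CPM without and 96.5 and 99.7 CPM with SOX9, and at 150 and 146 CPM without and 149 and 136 CPM with M303. Its difference was -0.77 (SE 0.10, adjusted p = 3.42e-04), and the uninduced SOX9 line was 0.23 log2 above the uninduced M303 line (unadjusted p = 0.0050). IL33, an alarmin cytokine, went from 127 and 116 to 61.3 and 59.2 CPM with SOX9 and from 114 and 123 to 104 and 97.0 CPM with M303. The M303 values lay between, and the difference was -0.78 (SE 0.13, adjusted p = 0.00347).

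Of the 8 highest differences that the naming rule takes, those outside the Paneth list were of genes at low levels. PLEKHS1 was at 0.964 and 1.07 CPM without and 11.9 and 11.1 CPM with SOX9, and between 1.07 and 1.84 CPM in the M303 line, a difference of 3.16 (SE 0.41, adjusted p = 3.42e-04). PLEKHB1 differed by 2.50, NTRK2, a neurotrophin receptor, by 2.27, CYB5R2, a cytochrome b5 reductase, by 2.20 and the interferon-stimulated gene IFI6 by 2.28. NTRK2 was at 3.96 and 5.6 CPM without and 23.1 and 22.1 CPM with SOX9, and between 4.30 and 5.69 CPM in the M303 line. In each of these genes the induced SOX9 pair lay above all 6 others. The pair lay outside them in all 89 called genes, and in 20.9% of all genes tested, so this adds nothing to the call.

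Proliferation genes showed no called difference. Of 32 tested cell cycle and replication genes 0 were called for the difference and 0 for induction of SOX9, and the median difference was -0.01. A count of 0 is near the 0.489% called over all genes. For 29 of the 32 (90.6%) the interval of the difference lay within 0.5 log2 of 0, against 34.6% of all genes tested. As above, intervals are narrower for genes with more reads, so this share does not set cell cycle genes apart from others of like level. MKI67, a proliferation marker, was not among the tightly bounded ones, with a difference of -0.20 (95% interval -0.70 to 0.30), and CDKN1A, a cyclin-dependent kinase inhibitor, had -0.03 (95% interval -0.24 to 0.17). Among 29 glycolysis and hypoxia genes and 16 HOX genes 0 were called, which is near the 0.489% called over all genes and is no result about these lists. The plot of differences by gene list sets these groups side by side.

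**Figure D3:**
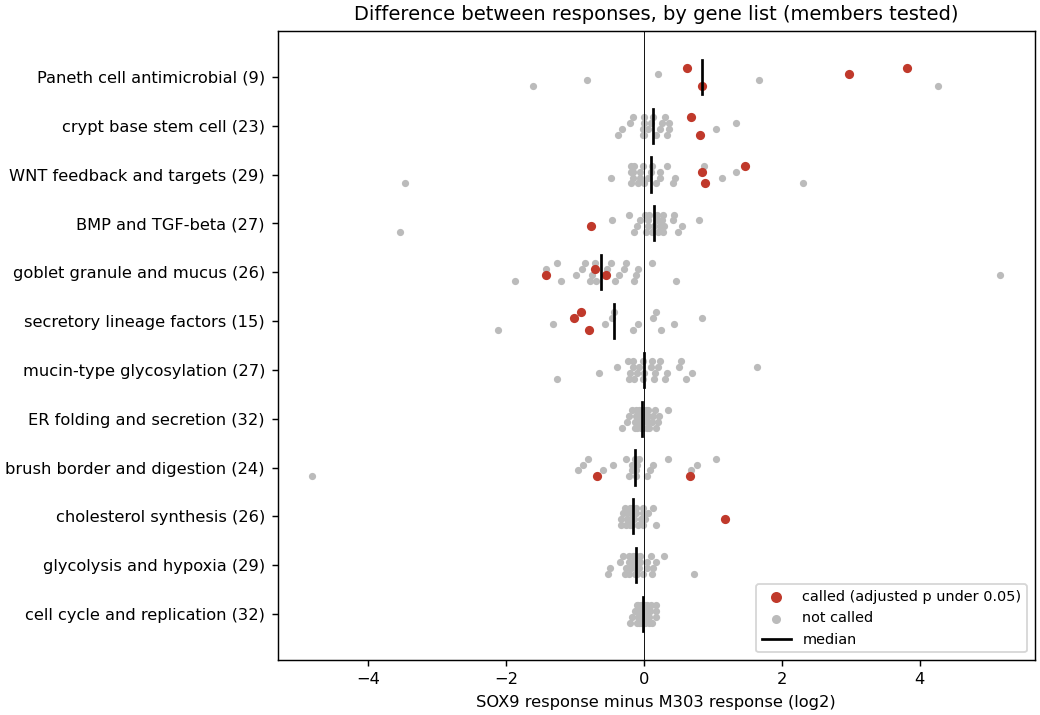
Difference between the responses (log2, SOX9 minus M303, x axis) for every tested member of 12 gene lists (y axis, with the number tested); red points were called at an adjusted p under 0.05, and black bars are list medians. The median of the Paneth list (0.85) lies to the right and that of the goblet list (-0.63) to the left of 0, with members on both sides in each, while the 32 cell cycle genes cluster at 0 with a median of -0.01.

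The M303 response was read across the 541 genes that SOX9 changed. These were chosen on the contrast of the SOX9 libraries, in a model whose estimate of the spread also used the M303 and GFP libraries. The M303 and GFP group means did not enter that contrast. The M303 value had the same sign as the SOX9 value in 439 (81.1%), against 56.2% of all tested genes. The GFP value had the same sign in 301 (55.6%), against 51.1%. At an unadjusted p under 0.05 and the same sign there were 98 for M303 (18.1%, against 2.5% of all genes) and 15 for GFP (2.77%, against 1.73%). The share for M303 was 78.8% among the 330 raised genes and 84.8% among the 211 lowered ones, and for GFP 48.2% and 67.3%. The M303 share ranged from 72.5%, without the first induced M303 library, to 85.9%, without the first induced SOX9 library.

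The M303 values were small. Among raised genes the median change was 0.59 with SOX9, 0.09 with M303 and -0.01 with GFP, and among lowered genes -0.57, -0.10 and -0.04. The median M303 value was 16.3% of the SOX9 change for raised and 20% for lowered genes, a description that rests on genes picked for a large SOX9 value. Of 12 genes that SOX9 lowered by over 1.5 log2, 11 had the same sign with M303, and the medians were -1.75 for SOX9, -0.52 for M303 and -0.02 for GFP. Of 47 genes raised by over 1.5 log2, 34 had the same sign, with medians of 2.24, 0.22 and 0.11. Of the 89 genes whose responses differed, 76 had an M303 value under 25% of the SOX9 change in size, and 21 had the same sign at an unadjusted p under 0.05. LYZ was the only 1 of the 89 with the opposite sign at that threshold.

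Few genes could be placed as alike. A gene was put there when its difference was not called and its M303 value had the same sign, an unadjusted p under 0.05 and at least 50% of the size of the SOX9 change. There were 39 such genes, 18 higher and 21 lower, 7.21% of the 541, and SOX9 itself is 1 of them. For 17 of the 39 the interval of the difference lay within 0.5 log2 of 0, and for 4 it excluded 0. The count was 25 without the first uninduced M303 library, 18 and 15 without the first and second uninduced SOX9 libraries, and 10 and 12 without the first and second induced ones. Over the 541 genes, 74 (13.7%) were not called and had an interval within 0.5 log2, against 34.6% of all genes, and 1 was within 0.3 log2. Leaving out single libraries took that count from 2, without the first induced SOX9 library, to 118, without the first induced GFP library. Most of the 452 genes without a called difference are thus neither shown to differ nor shown to be alike.

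Among alike genes that fell, CAPN5, a calpain protease, was at 68.9 and 78.2 CPM without and 57.3 and 55.6 CPM with SOX9, and at 81.5 and 79.2 CPM without and 65.2 and 68.3 CPM with M303. Both induced pairs lay below their uninduced pairs, and the difference was -0.11 (95% interval -0.36 to 0.13). LINC00261, the noncoding RNA whose promoter is printed above, went from 12.8 and 10.3 to 6.37 and 6.50 CPM with SOX9 and from 15.0 and 11.4 to 9.03 and 8.91 CPM with M303, with a difference of -0.30 (95% interval -0.79 to 0.20). BIRC3, an inhibitor of apoptosis, had -0.91 and -0.56 (difference -0.36, interval -0.80 to 0.09), and EVA1A had -0.63 and -0.43 (difference -0.19, interval -0.59 to 0.20).

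Among raised genes, NT5E, the surface enzyme CD73, was at 80.5 and 74.0 CPM without and 123 and 120 CPM with SOX9, and at 70.5 and 72.8 CPM without and 88.5 and 92.4 CPM with M303. Both induced pairs lay above all 4 uninduced libraries. The responses were 0.65 and 0.34, and the interval of the difference, 0.08 to 0.56, excluded 0, although it was not called over all genes (0.32, adjusted p = 0.500). EDAR, the ectodysplasin receptor, had 2.6 and 1.35 at low levels, from 1.39 and 0.957 to 6.69 and 7.60 CPM with SOX9 and from 0.903 and 1.33 to 3.12 and 2.59 CPM with M303. Its interval, 0.22 to 2.29, also excluded 0. The induced SOX9 libraries were called above the induced M303 ones for NT5E (0.43, edgeR adjusted p = 0.00524) and EDAR (1.32, adjusted p = 0.0406). OPRD1, an opioid receptor, had 2.15 and 2.28 at levels of at most 4.27 CPM, and its interval of -1.40 to 1.13 is too wide to place it. Without the first uninduced M303 library its difference was 0.02 in place of -0.13. The plot of both responses for named genes shows how far the M303 intervals stand from the SOX9 ones.

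**Figure D4:**
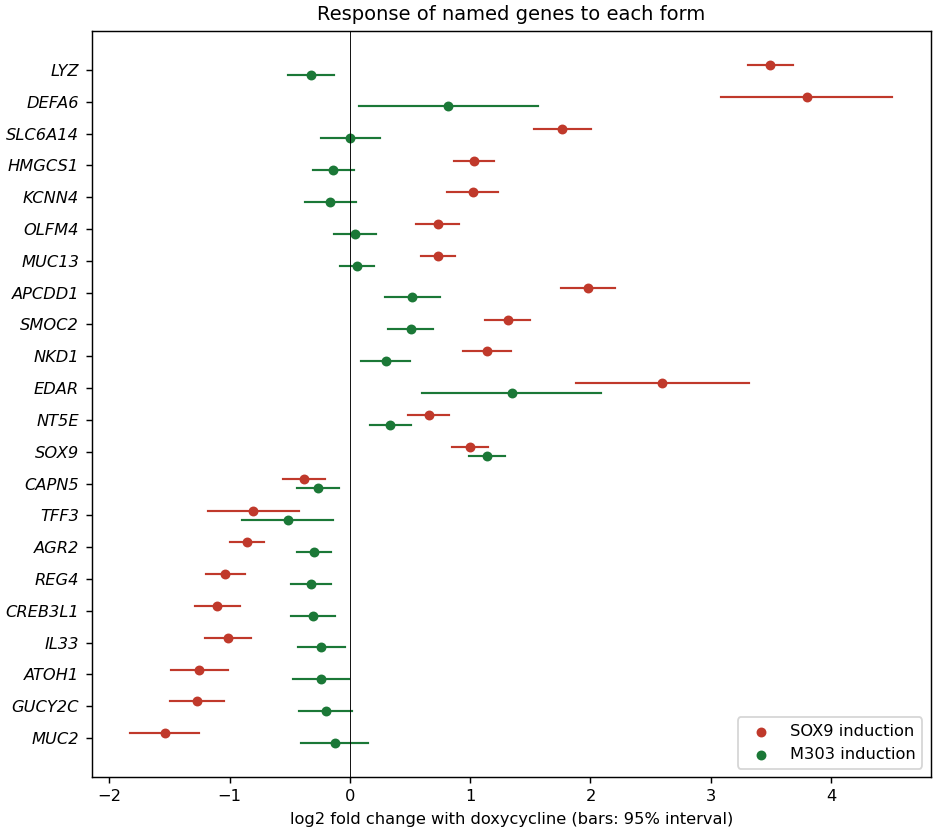
Log2 fold change with doxycycline (x axis) for 22 named genes, for induction of SOX9 (red) and of M303 (green); points are estimates from edgeR and bars are 95% intervals over 2 libraries a group. The intervals of SOX9 and CAPN5 overlap between the forms, those of LYZ and MUC2 lie far apart, and APCDD1 and SMOC2 have M303 intervals above 0 and below the SOX9 intervals.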

How the data were processed

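Raw read counts per gene were measured by RNA sequencing of poly(A) RNA, with 12 libraries in 6 groups. The deposited unit is the read count: per the submitters' processing notes the authors aligned reads to hg38 with STAR 2.7.0a and counted them with featureCounts, and per the file headers this was version 2.0.1 using genes of Ensembl release 101. Its recorded command lacks any option for read pairs, strand or multi-mapped reads, so mates were counted as reads, opposite-strand overlaps cannot be separated, and close gene copies may lose shared reads. Library totals are of mates, so counting error is larger than they imply.

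From these counts, edgeR 4.0.16 (R 4.3.3) was run with filterByExpr, TMM factors and its robust quasi-likelihood F-test. One model held all 12 libraries, with a mean per group and 6 residual degrees of freedom, and 18219 genes were tested. The difference was the contrast of the 2 inductions. P-values were adjusted by Benjamini-Hochberg over all genes and called under 0.05. The median standard error of a difference was 0.16 log2. In simulated counts 67 genes were changed 1.5-fold, 67 2-fold and 66 4-fold, and 17571 genes were tested for this difference. Of the changed genes 29.9%, 73.1% and 89.4% were recovered. There were 12 false calls, to be set against the genes recovered and not against all genes tested. CPM values use TMM-scaled totals.

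The members, the 39 lists and the naming rule were chosen with earlier results of these data known. The rule names SOX9 and 21 set genes; the 8 highest and 8 lowest differences among called genes with a symbol and a mean of at least 1 log2 CPM; the 3 members of each list with the smallest adjusted p among those called; and the 8 alike genes with the smallest M303 p. One gene that the rule names is not reported here. Of 879 listed symbols, 2 were not matched and 161 were not tested. No 2 libraries of a group agreed within sampling noise (chi-square per degree of freedom 6.89 to 20.6). Alternatives were DESeq2 1.42.0, RLE scaling, other filters, a replicate block, the 8 SOX9 and M303 libraries alone, and leaving out each library. Promoters are RefSeq sequences on GRCh38.p14.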

Additional observations from a re-analysis of the deposited data

Results flagged for a closer look

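The response to SOX9 and the response to M303 differed, by the test of the difference itself, for 89 genes. LYZ, with a difference of 3.82 log2, was among them with responses of opposite sign: both induced SOX9 libraries were above both uninduced ones of that line, and both induced M303 libraries were below both of theirs. The fall with M303 on its own was not called (edgeR adjusted p = 1).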

How the results depend on the processing

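Of 63 named genes, 42 kept their call under all 18 alternatives and 21 did not. One value reversed: OPRD1 had 0.0194 without the first uninduced M303 library, and -0.32 to 0.0194 over all libraries left out. The 89 differences numbered 147 without a filter on low counts, 139 by DESeq2 and 57 to 107 with a library left out. With a library left out, SOX9 induction called 231 to 675 genes, M303 1 to 2, GFP 0 to 9, and induced SOX9 minus induced M303 138 to 373 (313 with all, 1.72% of genes; 172 and 152 without the first and second induced M303 library, 142 and 138 without the induced SOX9 ones). The GFP count was 9 without the first uninduced GFP library. M303 called 9 genes without a filter, 2 in the 8-library fit and 3 by DESeq2; GFP called 4 and 2 without a filter and by DESeq2, and the uninduced comparison 1 by DESeq2.

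Genes called for SOX9 and for the difference were 146 without a filter and 57 to 107 with a library left out. The alike genes were 61 without a filter, 77 with M303 at 25% of the SOX9 change, and 10 to 48 with a library left out. Genes with a bounded difference were 125 without a filter, 166 in the 8-library fit, 1 at 0.3 log2 and 2 to 118 with a library left out. The same-sign share ranged from 72.5% to 85.9% for M303 and from 44.5% to 64.9% for GFP. The cause of these shifts was not tested.

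Deviations of same-numbered libraries correlated with either sign between groups (-0.351 to 0.277), so the numbers do not pair them alike. Some groups did share deviations, in the opposite order for induced GFP and uninduced SOX9 (-0.351). They were in the same order for induced M303 and uninduced SOX9 (0.277). A block by replicate number does not account for the opposite order, and the cause was not tested. With a replicate block 78 differences were called and 32 genes were bounded, and SPDEF (adjusted p = 0.0714), B3GALT5 (0.0673), NEURL1 (0.0546) and IGFBP3 (0.0791) were not called. With 2 libraries a group, differences under 2-fold were often not detectable.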

Other observations

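Other called differences concern adhesion, structure and signalling. KRT6B, a keratin of stratified and stressed epithelium, was at 4.20 and 5.74 CPM without and 15.6 and 16.4 CPM with SOX9, against 4.61 to 5.34 CPM in the M303 line (difference 1.59, SE 0.29, edgeR adjusted p = 0.00643). It belongs to a close keratin family, and reads shared within it may have been lost. COL9A3, a cartilage collagen gene, differed by 1.80 (adjusted p = 0.0235), but not without the first uninduced or first induced M303 library, the second uninduced SOX9 library or either induced SOX9 library (1.5 to 1.9, adjusted p 0.0555 to 0.202). CLDN1, a tight junction protein, differed by 0.69 (adjusted p = 0.00781), but not without the second uninduced M303, second induced M303 or second induced SOX9 library (0.63 to 0.65, adjusted p 0.0593 to 0.105). The galectin LGALS4 had 1238 and 1166 CPM without and 752 and 758 CPM with SOX9, and 1216 and 1228 CPM without and 1099 and 1112 CPM with M303. Its difference of -0.53 (adjusted p = 0.00743) was not called without the first uninduced M303 library or either induced SOX9 library (-0.52 to -0.54, adjusted p 0.0555 to 0.0655).

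Some of the most negative differences were of weakly expressed genes. B3GALT5, a galactosyltransferase (difference -1.95, adjusted p = 0.042), was not called without any 1 of 7 libraries: either of the M303 line's uninduced or induced ones, either induced SOX9 one, or the second uninduced SOX9 one (-1.70 to -2.17, adjusted p 0.0702 to 0.257). It was also not called with a replicate block (adjusted p = 0.0673), in the fit of the 8 SOX9 and M303 libraries alone (0.062) or with the stricter filter (0.0523). KLK3, a kallikrein protease of a close family (-1.77, adjusted p = 0.0199), was not called without the first uninduced or first induced M303 library, the first uninduced SOX9 library or either induced SOX9 library (-1.53 to -1.82, adjusted p 0.0622 to 0.164). B3GALT5 levels were between 1.07 and 3.74 CPM.

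TCN1, a vitamin B12 binding protein named here after its values were seen, had the highest called difference without being reached by the naming rule, because its mean level was too low. It was at 0.964 and 0.450 CPM without and 9.09 and 9.80 CPM with SOX9, and at 0.782 and 1.01 CPM without and 0.709 and 0.230 CPM with M303 (difference 4.63, SE 0.62, edgeR adjusted p = 3.42e-04). RUNX1, a transcription factor also named after its values were seen, went from 21.3 and 19.8 to 46.0 and 45.2 CPM with SOX9 and was at 22.3 to 25.5 CPM in the M303 line (difference 1.14, SE 0.15, adjusted p = 3.42e-04). It overlaps 4 opposite-strand genes.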
